A study of Mus musculus with 18 samples.

Results

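The genes described here are 50 mouse genes of the cell cycle, chosen by symbol: 23 that act in S phase, when DNA is copied, and 27 that act in G2 and mitosis (G2/M). All 50 symbols were among the 35642 in the table of expression values, and each was measured in all 18 libraries. The rule lists symbols and sets no threshold on measured values.

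A proliferating cell commits to division in G1, when cyclin-dependent kinases release E2F transcription factors from the retinoblastoma family of pocket proteins. E2F then activates genes for origin licensing, nucleotide supply and the replication fork, so S phase genes rise first. Mitotic genes follow in G2, and many of them are held silent in resting cells by the DREAM complex, which binds promoters through an element called CHR, while B-MYB and FOXM1 activate them later. Growth signals feed this chain through cyclin D, and the RNA of these genes is often read as a measure of how many cells are cycling.

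The libraries were made from polyA RNA of untreated mouse pancreatic tumour cells in culture, from lines that were derived from KPCY mice. These mice carry a Cre-activated R172H allele of Trp53, Pdx1-Cre, which acts in the pancreatic lineage, and a Cre-activated Yfp reporter on both copies of R26. The comparisons concern Mcu, which encodes the pore of the mitochondrial calcium uniporter, the channel through which calcium enters mitochondria. There were 6 groups of 3 libraries. In line 1151, which was batch 1 in the labels, Mcu Cre-knockout cells with an empty vector were set against the same Mcu Cre-knockout cells re-expressing MCU, and both were kept in puromycin at 2 μg/mL. In line 2838, which was batch 2, Mcu CRISPR-knockout clones 17 and 42 were set against Mcu wild-type clones 15 and 22, which carried an empty vector; the labels name no vector for clones 17 and 42. Each 2838 group is therefore 1 clone, the lines and batches coincide, and nothing in the labels says whether the 3 libraries of a group were grown as separate cultures, so a p-value measures only the spread between these libraries, which may be technical.

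Levels were the authors' TPM, a measure of transcript abundance that corrects for transcript length and scales each library to the same total, and changes were tested on log2(TPM + 1). A gene was called at a Benjamini-Hochberg adjusted p under 0.05 from limma over all genes tested. For clones 17 and 42 a call needed this against clone 15 and against clone 22, in the same direction. In bulk RNA, fewer cells in a phase and less RNA per cell cannot be told apart.

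The labels and Mcu RNA differed in some groups. Mcu was at 16.6, 15.2 and 13.3 TPM in 1151 knockout libraries, against 14.4, 15.2 and 13.2 TPM in re-expressing libraries. In line 2838 it was at 120.1, 122 and 113 TPM in clone 17 and 12.3, 10.5 and 11.5 TPM in clone 42, against 68.4, 81.2 and 76.0 TPM in clone 15 and 94.3, 96.3 and 59.3 TPM in clone 22. Mcu RNA was thus low in clone 42 and, in clone 17, above every wild-type library; a transcript can persist after an edit, so RNA checks these labels only in part, and the groups are called by their labels throughout. Library 3 of clone 22 stood apart from the other 2838 libraries, with 10760 genes at 1 TPM or more and an upper quartile of 16.8 TPM, against at least 11207 genes and 25.5 TPM in the other 11. Of 10 ductal epithelial markers, 8 or 9 were at 1 TPM or more in every library of a group, Krt8, Krt18 and Krt19 among them; Epcam was below 1 TPM in line 2838. The 9 fibroblast markers summed to at most 1.36 TPM in any library, and of the 8 leukocyte markers only Cd68 reached 1 TPM, with Adgre1 and Cd3e at 0 in all groups. Endothelial markers summed to 8.32 to 8.77 TPM in 1151 knockout libraries, mostly Kdr, and to 5.60 to 6.10 TPM in re-expressing libraries, mostly Cdh5, with Tek and Emcn at 0 in both; in line 2838 the sum was at most 0.677 TPM. Acinar and endocrine markers were at 0 apart from Cela1, which ran from 9.21 to 28.8 TPM in line 2838. The part of these levels in the results was not tested.

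Some promoters of these genes hold letters of the elements named above, and 6 stretches that show them are printed here, from RefSeq windows of build GRCm38.p6 that run from 250 bases before to 50 bases after each annotated start. The first 3 belong to S phase genes. Uhrf1 (UHRF1 brings maintenance DNA methylation to new strands) lies on the plus strand with the stretch at chr17:56304103-56304222. Another Uhrf1 window, at chr17:56303087-56303386, holds CCAAT letters but no E2F or CHR letters and is not printed. Cdc6 (an origin licensing factor) is on the plus strand at chr11:98908001-98908150, and Mcm6 (a subunit of the MCM helicase) is on the minus strand at chr1:128359706-128359855. The other 3 belong to G2/M genes, all on the minus strand: Cdk1 (the mitotic kinase) at chr10:69352913-69353062, Cdc20 (an activator of the anaphase-promoting complex) at chr4:118437344-118437493 and Top2a (topoisomerase II alpha) at chr11:99024190-99024379. All 6 stretches lie upstream of the start and read 5′ to 3′ on the gene's strand; capitals mark the E2F, CHR and CCAAT letters defined after them.
Uhrf1: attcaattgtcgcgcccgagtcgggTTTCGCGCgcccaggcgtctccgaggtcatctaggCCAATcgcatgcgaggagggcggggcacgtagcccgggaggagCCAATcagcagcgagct
Cdc6: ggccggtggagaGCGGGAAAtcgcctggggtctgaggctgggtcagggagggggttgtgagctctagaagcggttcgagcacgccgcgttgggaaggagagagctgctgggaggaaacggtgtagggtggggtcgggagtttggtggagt
Mcm6: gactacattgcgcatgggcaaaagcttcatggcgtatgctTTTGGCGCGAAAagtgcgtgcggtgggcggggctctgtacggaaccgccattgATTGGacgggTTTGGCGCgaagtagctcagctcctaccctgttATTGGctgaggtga
Cdk1: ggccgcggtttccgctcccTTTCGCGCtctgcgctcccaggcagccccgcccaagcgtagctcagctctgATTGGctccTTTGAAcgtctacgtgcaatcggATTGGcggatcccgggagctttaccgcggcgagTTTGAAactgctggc
Cdc20: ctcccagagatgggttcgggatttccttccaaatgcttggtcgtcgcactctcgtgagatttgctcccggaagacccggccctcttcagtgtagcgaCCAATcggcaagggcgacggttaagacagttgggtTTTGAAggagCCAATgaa
Top2a: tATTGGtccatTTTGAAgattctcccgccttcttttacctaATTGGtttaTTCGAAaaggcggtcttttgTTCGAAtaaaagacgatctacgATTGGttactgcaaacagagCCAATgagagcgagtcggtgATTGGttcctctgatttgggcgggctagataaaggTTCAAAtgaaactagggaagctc

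The E2F letters searched were TTTCCCGC, TTTCGCGC, TTTGGCGC and TTTGCCGC, the CHR letters were TTTGAA and TTCGAA, and CCAAT, which the factor NF-Y binds, was searched by its own letters. Both strands were read and overlapping matches were allowed; in Mcm6, TTTGGCGC and GCGCGAAA overlap within 1 capital run. For 43 of the 50 genes there were 47 windows. E2F letters were in 7 of 22 S phase windows (31.8%) and in 1 of 25 G2/M windows (4.0%), which was that of Cdk1, against 4.05% of the windows of all genes tested in line 2838 and 2.26% of all 32851 windows. CHR letters were in 21 of 25 G2/M windows (84.0%) and in 4 of 22 S phase windows (18.2%), against 14.0% for tested genes and 19.2% for all. CHR and CCAAT stood in the same window for 76.0% of the G2/M windows and 13.6% of the S phase windows, against 5.95% for tested genes. The 2 sets of genes thus differed in promoter letters that the choice by symbol did not use, though a match does not show that a factor binds there. No window was matched for Mcm4, Gins2, Ccne2, Rfc2, Ccna2, Aurkb and Tpx2.

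**Figure D1:**
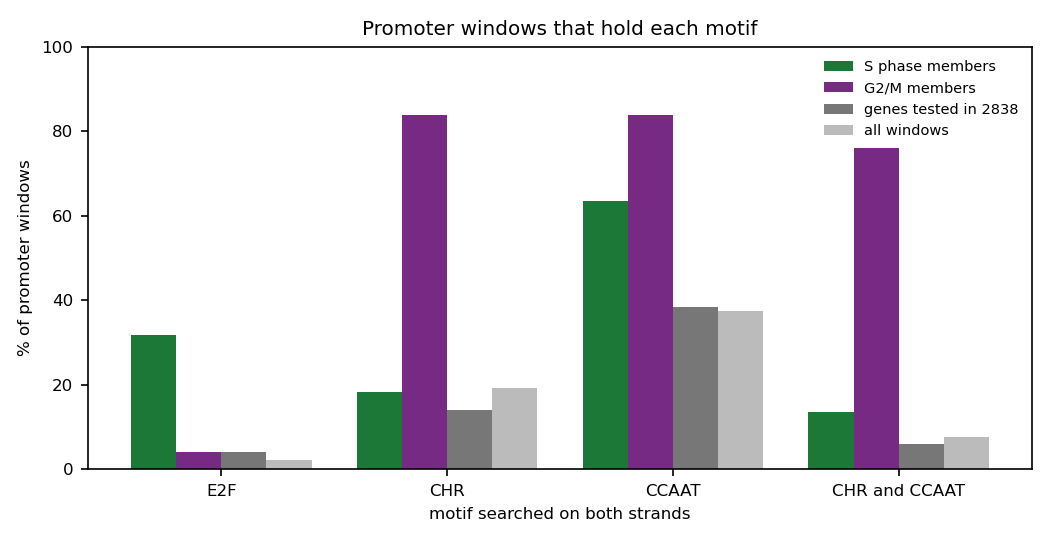
Share of RefSeq promoter windows (% of windows, y axis) that hold each motif (x axis), for S phase genes, G2/M genes, genes tested in line 2838 and all windows. E2F letters are commonest in S phase windows (31.8%) and CHR letters in G2/M windows (84.0%).

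Averaged over the genes on the log2(TPM + 1) scale, the 2838 clones took different places for S phase and G2/M. The mean over the 23 S phase genes was 5.03 ± 0.077 in clone 17 and 5.96 ± 0.030 in clone 42, against 5.46 ± 0.26 in clone 15 and 5.46 ± 0.27 in clone 22 (SD, n = 3 libraries each). All 3 clone 17 libraries (4.96 to 5.11) lay below all 6 wild-type libraries (5.16 to 5.71), and all 3 clone 42 libraries (5.92 to 5.98) lay above them. The mean over the 27 G2/M genes was 5.42 ± 0.095 in clone 17 and 5.93 ± 0.076 in clone 42, against 5.46 ± 0.32 in clone 15 and 5.60 ± 0.42 in clone 22. Here clone 17 (5.33 to 5.52) lay inside the wild-type range of 5.12 to 6.0, and clone 42 (5.86 to 6.01) reached into its upper end.

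In line 1151 the S phase mean was 6.38 ± 0.033 in knockout libraries and 6.03 ± 0.034 in re-expressing libraries, and the G2/M mean was 6.36 ± 0.060 in knockout libraries and 6.13 ± 0.013 in re-expressing libraries. The groups did not overlap in either mean. The S phase mean minus the G2/M mean was between -0.41 and -0.38 in clone 17, the lowest 3 values of the 12 in line 2838, where the other 9 ran from -0.30 to 0.079. These means describe the list and carry no test. They were lowest among wild-type libraries in library 2 of clone 15 and library 3 of clone 22, the second of which is the library that stood apart.

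**Figure D2:**
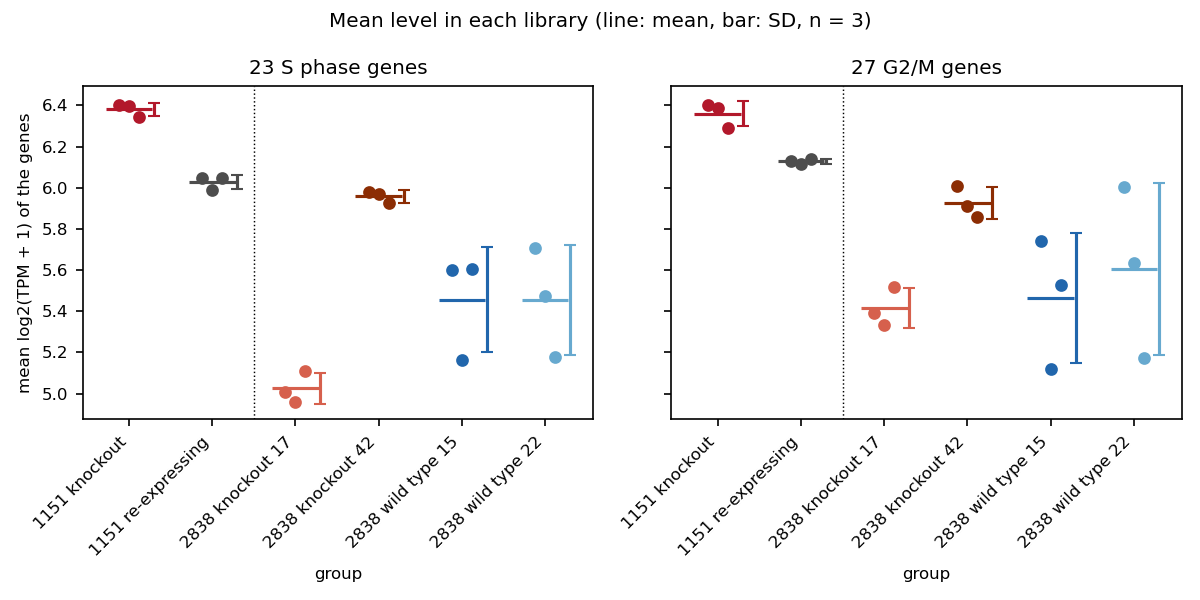
Mean log2(TPM + 1) over the 23 S phase genes (left) and the 27 G2/M genes (right) in each library (points), with group mean and SD (n = 3), by group on the x axis. In line 2838 clone 17 lies below the wild-type clones for S phase genes (4.96 to 5.11) but among them for G2/M genes (5.33 to 5.52), and clone 42 lies highest for S phase genes (5.92 to 5.98).

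Levels differed widely between genes in every group. In line 1151 the highest means among G2/M genes were those of Cdk1 and of Ube2c, the E2 enzyme of the anaphase-promoting complex, which averaged 455 ± 44.6 TPM in knockout cells and 416 ± 10.1 TPM in re-expressing cells (SD, n = 3 each). Bub1, a spindle checkpoint kinase, was the lowest, at 2.83, 3.43 and 2.09 TPM in 1151 knockout libraries, against 2.88, 1.80 and 3.18 TPM in re-expressing libraries, and it was below 1 TPM in every 2838 library. It was the 1 gene of the 50 that was not tested in line 2838, where 1 TPM in at least 3 libraries was required; all 50 were tested in line 1151. Some levels are uncertain. The labels do not say whether strand was used in counting, and 10 of the 50 genes share exon bases with a tested gene on the opposite strand (Ccna2, Ccne2, Cdc20, Cdc45, Cdca8, Fen1, Gins2, Mcm7, Nusap1 and Rfc2 in GENCODE M21). Ccnb2 also has a pseudogene, Ccnb2-ps, at 0.442 to 3.50 TPM over the 18 libraries. E2f1 (an E2F transcription factor itself) was at 16.0, 15.3 and 15.9 TPM in clone 17 and 16.6, 19.1 and 16.1 TPM in clone 42, against 23.1, 17.0 and 20.9 TPM in clone 15 and 18.2, 17.9 and 15.2 TPM in clone 22.

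**Figure D3:**
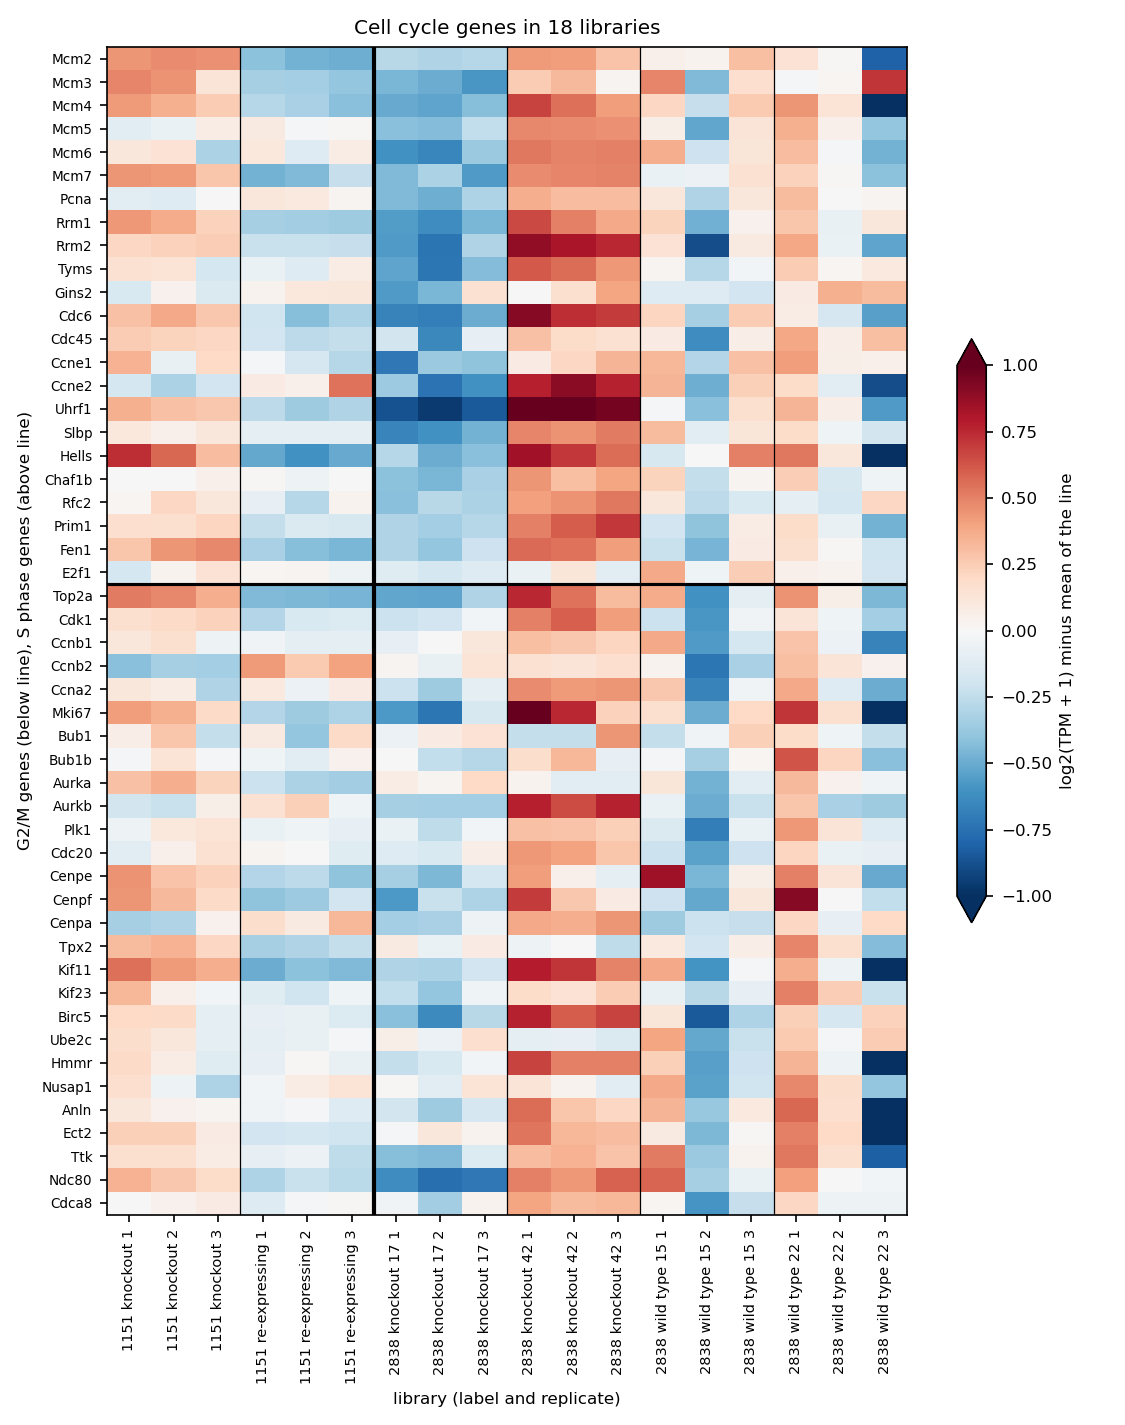
Each gene's log2(TPM + 1) minus its mean over the line (colour) in each of the 18 libraries (columns), with S phase genes above the horizontal line and G2/M genes below it. In line 2838 the S phase block is mostly blue in clone 17 and mostly red in clone 42, while library 2 of clone 15 and library 3 of clone 22 are blue for many genes of both blocks.

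In line 1151, S phase genes were mostly higher in Mcu knockout cells than in MCU re-expressing cells. Of 23, 13 rose and 2 fell, where 34.0% of the 11630 genes tested rose and 27.0% fell. The median log2 change was 0.36 over the 23, against 0.055 over all genes tested. The genes that rose included 6 of the 9 that load and unwind the replicative helicase, 2 of the 3 of deoxynucleotide supply and 3 of the 4 of histone supply and chromatin copying.

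Hells, an SNF2 chromatin remodeller needed for DNA methylation, had the largest change. It was at 151, 135 and 112 TPM in knockout libraries, against 62.7, 59.0 and 63.1 TPM in re-expressing libraries (log2 change 1.08 ± 0.11 SE, adjusted p = 0.000155). Mcm2, a subunit of the MCM helicase, was at 134, 136 and 134 TPM in knockout libraries, against 73.5, 70.3 and 69.6 TPM in re-expressing libraries (0.91 ± 0.048 SE, adjusted p = 1.01e-05). Every knockout library lay above every re-expressing library for both genes.

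Fen1, the flap endonuclease that trims Okazaki fragments, was at 114, 128 and 132 TPM in knockout libraries, against 74.6, 69.7 and 68.2 TPM in re-expressing libraries (0.80 ± 0.071 SE, adjusted p = 9.49e-05). Mcm7 was at 237, 235 and 211 TPM in knockout libraries, against 126, 128 and 148 TPM in re-expressing libraries (0.76 ± 0.083 SE, adjusted p = 0.000245). Neither gene's groups overlapped. Mcm3 and Mcm4, of the same helicase, rose by 0.70 and 0.69, whereas Mcm5 (-0.061, adjusted p = 0.436) and Mcm6 (-0.038, adjusted p = 0.821) did not pass, so the 6 subunits of 1 ring were not alike in RNA.

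Other genes that rose were Cdc6 (0.63), Cdc45 (0.46), which travels with the helicase at the fork, Rrm1 (0.69) and Rrm2 (0.45), the subunits of ribonucleotide reductase, Uhrf1 (0.61), Prim1 (0.36), the DNA primase subunit that makes RNA primers, and Slbp (0.18), which binds the stem-loop of histone mRNA. Tyms (thymidylate synthase), Chaf1b (a histone chaperone subunit), Rfc2 (a subunit of the clamp loader) and Gins2 (a helicase partner) did not pass, with log2 changes of 0.076, 0.035, 0.22 and -0.17.

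None of the 3 regulators of S phase entry was called higher. Ccne2 (cyclin E2) fell to 24.4, 22.1 and 24.2 TPM in knockout libraries, against 29.4, 28.7 and 40.8 TPM in re-expressing libraries (-0.45 ± 0.14 SE, adjusted p = 0.0242). Ccne1 (cyclin E1) was at 13.8, 10.1 and 12.4 TPM in knockout libraries, against 10.6, 9.35 and 8.56 TPM in re-expressing libraries, and the groups overlapped (0.31, adjusted p = 0.0719). E2f1 was at 21.8, 25.4 and 27.4 TPM in knockout libraries, against 25.1, 25.2 and 23.8 TPM in re-expressing libraries, with overlapping groups (0.0010, adjusted p = 0.993). Without library 2 of the knockout cells, Ccne2 no longer passed (-0.41, adjusted p = 0.0734) and Ccne1 did (0.43, adjusted p = 0.0214).

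Pcna, the sliding clamp of DNA polymerases, had the highest mean TPM of the S phase genes in both groups, and it fell slightly. It was at 325, 319 and 349 TPM in knockout libraries, against 379, 374 and 358 TPM in re-expressing libraries (-0.16 ± 0.058 SE, adjusted p = 0.0462). The groups did not overlap, but the call was lost when any 1 of 5 of the 6 libraries was left out; without library 3 of the knockout cells it held.

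Of the 27 G2/M genes in line 1151, 11 rose and 2 fell, a share of rises near the 34.0% of all genes, where 27.0% fell. The median log2 change was 0.15, and 22 of the 27 were positive, as were 18 of the 23 S phase genes; the 2 sets were not tested against each other. Top2a, which untangles chromosomes before they separate, was at 283, 276 and 255 TPM in knockout libraries, against 145, 144 and 143 TPM in re-expressing libraries (0.91 ± 0.056 SE, adjusted p = 1.90e-05). Kif11, the kinesin that pushes spindle poles apart, was at 123, 113 and 108 TPM in knockout libraries, against 58.9, 62.9 and 61.4 TPM in re-expressing libraries (0.90 ± 0.065 SE, adjusted p = 3.85e-05). The groups did not overlap for either gene.

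Mki67, the Ki-67 proliferation marker that coats mitotic chromosomes, was at 68.1, 65.2 and 58.2 TPM in knockout libraries, against 41.3, 39.4 and 40.8 TPM in re-expressing libraries (0.64 ± 0.071 SE, adjusted p = 0.000259). Cenpe, a kinetochore kinesin, was at 25.4, 22.5 and 21.6 TPM in knockout libraries, against 14.8, 15.1 and 13.6 TPM in re-expressing libraries (0.64 ± 0.082 SE, adjusted p = 0.000541). Both genes were higher in every knockout library. Cenpf (0.64) and Ndc80 (0.54), which also sit at kinetochores, rose too, as did the kinase Aurka (0.58) and its spindle activator Tpx2 (0.58), Ect2 (0.37), which starts cytokinesis, and the checkpoint kinase Ttk (0.27), whose call was lost without library 1 or 2 of the knockout cells or library 3 of the re-expressing cells.

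Cdk1 and the cyclins it pairs with did not share a direction. Cdk1 rose, at 450.5, 459 and 473 TPM in knockout libraries, against 329, 361 and 366 TPM in re-expressing libraries (0.39 ± 0.061 SE, adjusted p = 0.00139). Ccnb2 (cyclin B2) fell to 70.8, 75.3 and 75.0 TPM in knockout libraries, against 128, 114 and 126 TPM in re-expressing libraries (-0.73 ± 0.062 SE, adjusted p = 8.09e-05), with no overlap. Ccnb1 (cyclin B1) was at 188, 194 and 167 TPM in knockout libraries, against 169, 162 and 163 TPM in re-expressing libraries, and did not pass (0.15, adjusted p = 0.0957).

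Cenpa, the histone H3 variant that marks centromeres, fell to 107, 109.5 and 139 TPM in knockout libraries, against 153, 144 and 170.1 TPM in re-expressing libraries (-0.40 ± 0.11 SE, adjusted p = 0.0202); the call was lost without library 1 or 2 of the knockout cells or library 3 of the re-expressing cells. Neither the chromosomal passenger complex (Aurkb -0.23, Birc5 0.20, Cdca8 0.090) nor the anaphase-promoting complex genes (Cdc20 0.064, Ube2c 0.12) held a call. The remaining 8, Ccna2, Bub1, Bub1b, Plk1, Kif23, Hmmr, Nusap1 and Anln, did not pass either, with log2 changes between -0.13 and 0.24.

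In line 1151, whole chromosomes moved with the groups. The median log2 change of tested genes was 0.52 on chromosome 19, where Hells, Fen1 and Kif11 lie, and 0.34 on chromosome 10, where Prim1 and Cdk1 lie, against 0.055 over all genes. It was 0.447 on chromosome 15, 0.308 on chromosome 17 (Uhrf1 and Ndc80) and 0.268 on chromosome 6 (Mcm2). On chromosome 8, where Mcm5 and Gins2 lie, it was -0.283. With each library centred on the median of the genes on the same chromosome, Hells (0.49), Fen1 (0.21) and Kif11 (0.31) remained called. Mcm2 (0.58), Uhrf1 (0.35) and Ndc80 (0.28) also remained called at smaller changes, whereas Rrm1 rose by more (0.81). Prim1 (-0.027), Cdk1 (0.0017) and Slbp (0.033) lost their calls, Mcm5, Ccne1, Ccnb1, Plk1, Kif23 and Anln were then called higher, and Aurkb was called lower. When the spread was taken over the 6 groups of both lines rather than between libraries of 1 population, none of the 50 genes was called by limma, with standard errors of 0.16 to 0.98; at an unadjusted p under 0.05 there were then 0 S phase genes and 1 G2/M gene, which was higher, where 9.13% of all genes were higher and 7.23% lower.

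**Figure D4:**
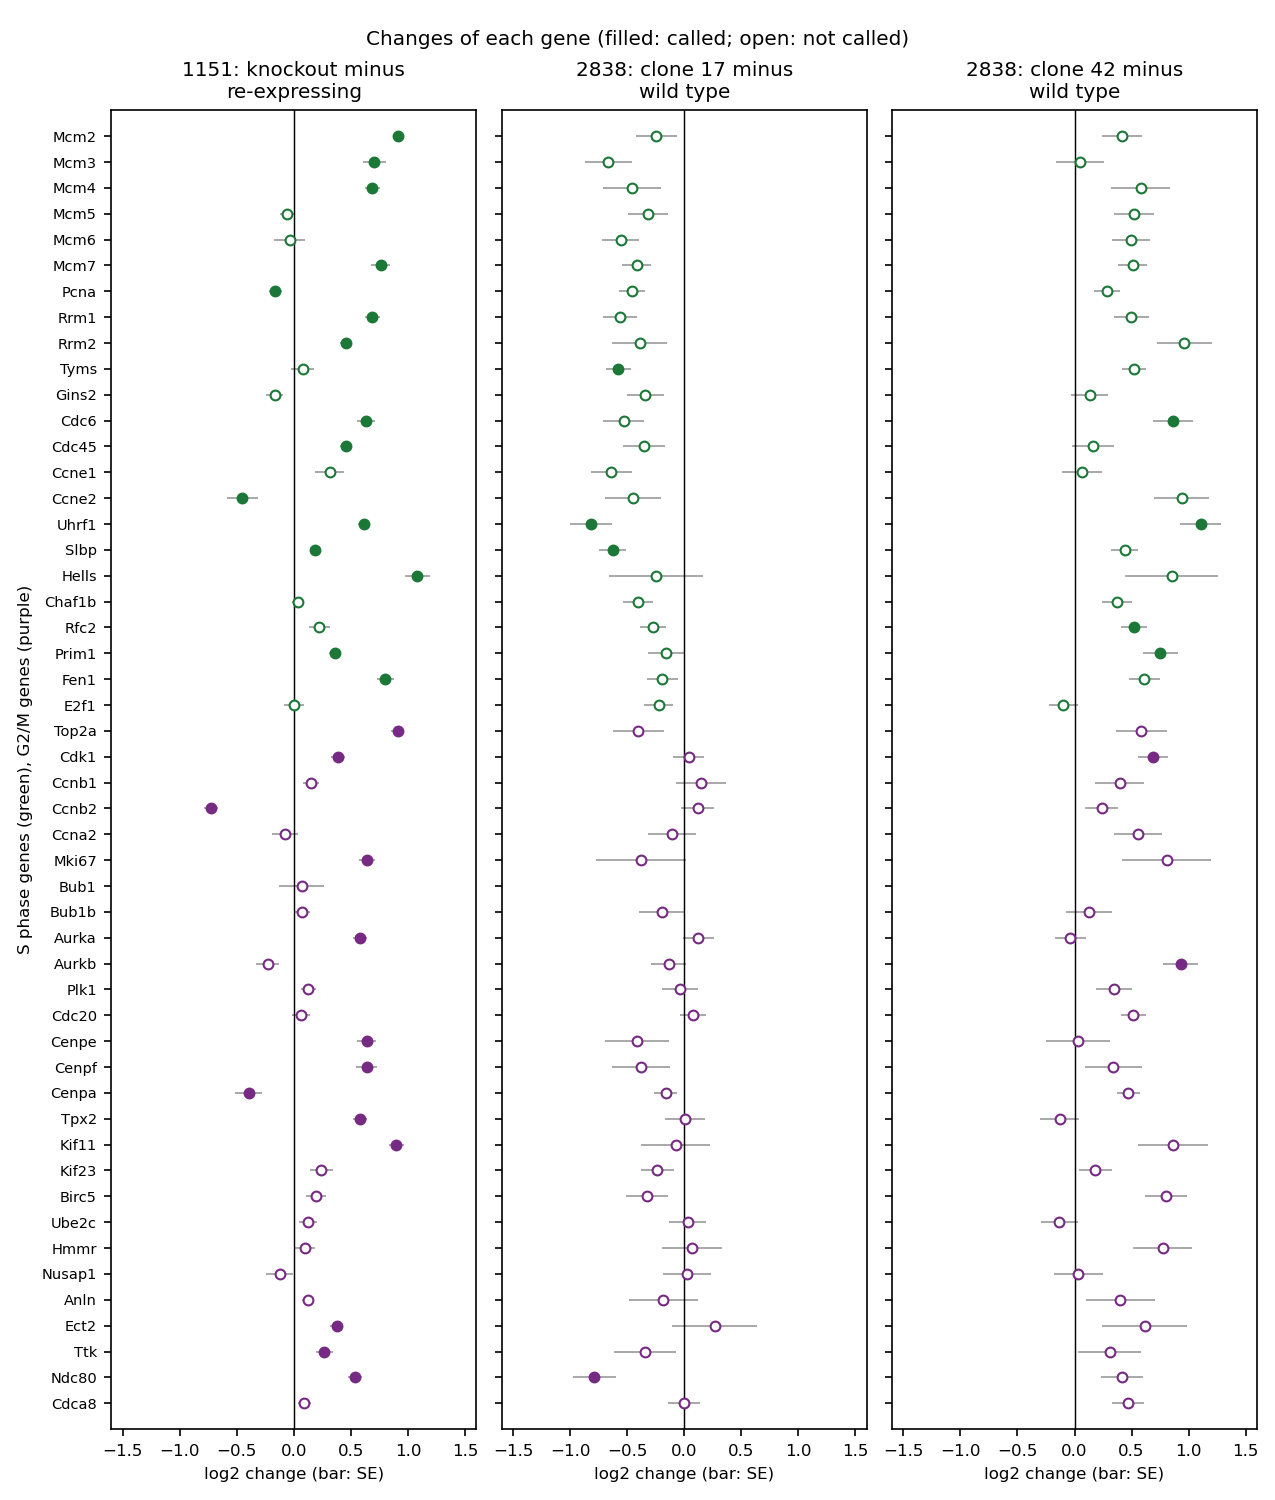
Log2 change of each gene (points, with SE bars) for 1151 knockout minus re-expressing cells, 2838 clone 17 minus the mean of the wild-type clones and clone 42 minus the same mean; filled points were called. All 23 S phase genes lie left of 0 in clone 17 and 22 of them right of 0 in clone 42.

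In line 2838, S phase levels in clone 17 lay below those of the wild-type clones. All 23 S phase genes had a negative log2 change against the mean of the wild-type clones, with a median of -0.42, against 0.088 over all genes tested. Of the 23, 3 fell beyond both wild-type clones and none rose, where 1.86% of 11795 tested genes fell and 2.08% rose. At an unadjusted p under 0.05 against both clones, 10 of the 23 were lower, against 5.01% of all genes.

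Uhrf1 fell the most. It was at 33.5, 31.5 and 34.3 TPM in clone 17, against 61.7, 46.2 and 69.4 TPM in clone 15 and 78.8, 65.2 and 41.5 TPM in clone 22 (log2 change -0.82 against their mean, adjusted p = 0.0339 against clone 15 and 0.0387 against clone 22). Slbp was at 37.7, 39.3 and 43.2 TPM in clone 17, against 75.2, 55.5 and 65.5 TPM in clone 15 and 68.7, 58.6 and 53.0 TPM in clone 22 (-0.63, adjusted p = 0.00845 against clone 15 and 0.0302 against clone 22). Tyms was at 46.5, 40.6 and 49.7 TPM in clone 17, against 69.0, 55.3 and 66.2 TPM in clone 15 and 80.7, 68.6 and 72.4 TPM in clone 22 (-0.58, adjusted p = 0.0356 against clone 15 and 0.00833 against clone 22). For all 3 genes the highest clone 17 library was below the lowest wild-type library. That held for 8 of the 23 S phase genes, among them Pcna, Ccne1, Mcm3, Chaf1b and Rfc2, where 5.27% of tested genes lay below all wild-type libraries.

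Pcna was at 184, 178 and 202 TPM in clone 17, against 272, 203 and 271 TPM in clone 15 and 311, 249 and 256 TPM in clone 22, and missed the call against clone 15 (adjusted p = 0.0888) but not against clone 22 (0.0371). Ccne1 was at 3.95, 5.30 and 5.15 TPM in clone 17, against 9.24, 5.62 and 8.96 TPM in clone 15 and 9.87, 7.46 and 7.42 TPM in clone 22 (-0.64, adjusted p = 0.0899 against clone 15 and 0.0813 against clone 22). Mcm2 was at 57.5, 56.7 and 57.3 TPM in clone 17, against 72.7, 71.8 and 86.4 TPM in clone 15 and 77.3, 70.7 and 39.5 TPM in clone 22 (-0.24, adjusted p = 0.249 against clone 15 and 0.86 against clone 22). For Mcm2, library 3 of clone 22 was the 1 wild-type library below clone 17. The MCM subunits and their partners, 9 genes in all, had log2 changes between -0.66 and -0.24, and none passed.

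In the fit of all 12 libraries, G2/M genes in clone 17 did not share a direction. Of the 26 tested, 16 had a negative and 10 a positive log2 change, where 61.2% of all genes were positive. The median was -0.092, against 0.088 over all genes. Without library 3 of clone 22, the library that stood apart, the G2/M median was lower, at -0.165, against -0.00707 over all genes. The S phase median in clone 17 was then -0.505. Only 1 was called, lower, where 1.86% of all genes were called lower. That gene was Ndc80, a kinetochore subunit that grips microtubules, at 11.9, 10.8 and 11.1 TPM in clone 17, against 28.7, 14.8 and 17.9 TPM in clone 15 and 25.4, 18.9 and 18.5 TPM in clone 22 (-0.79, adjusted p = 0.0466 against clone 15 and 0.0451 against clone 22). Its groups did not overlap, and it was the only one of the 26 below all wild-type libraries, where 5.27% of tested genes lay below them. Both counts of 1 were near the shares of all genes.

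Cdk1 was at 171, 175 and 195 TPM in clone 17, within the range of 171, 132 and 194 TPM in clone 15 and 218, 193 and 157 TPM in clone 22 (0.038 against their mean). Ccnb1 was at 130.0, 138 and 149 TPM in clone 17, against 179, 92.4 and 122 TPM in clone 15 and 168, 132 and 86.2 TPM in clone 22 (0.15). Mki67 was at 14.5, 12.9 and 19.5 TPM in clone 17, against 24.7, 15.3 and 25.4 TPM in clone 15 and 36.8, 24.7 and 7.80 TPM in clone 22 (-0.38). All 3 genes overlapped with wild type and none passed.

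These counts depended on single libraries. Without library 3 of clone 22, 12 S phase genes were called lower in clone 17, the 3 named genes among them, and Ndc80 remained the 1 G2/M gene; 8.91% of all genes were then called lower. Without library 2 of clone 15, 5 S phase genes were called and Ndc80 remained. Without library 3 of clone 15, or any 1 library of clone 17 or clone 42, no S phase gene was called, and without library 1 of clone 15 or library 1 or 2 of clone 22, 1 was. Ndc80 lost its call without any 1 of these libraries. For the fits without a library other than library 3 of clone 22, the share of all genes is not given here.

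In clone 42, S phase levels lay above those of the wild-type clones. Of the 23, 22 had a positive log2 change against the mean of the wild-type clones, with a median of 0.51, against 0.080 over all genes tested. Beyond both wild-type clones 4 rose and none fell, where 3.25% of tested genes rose and 2.92% fell. At an unadjusted p under 0.05 against both clones, 13 were higher, against 7.88% of all genes. In 15 of the 23, every clone 42 library lay above all 6 wild-type libraries, as did 13.4% of tested genes.

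Uhrf1 rose the most here. It was at 130.1, 133 and 121 TPM in clone 42, against 61.7, 46.2 and 69.4 TPM in clone 15 and 78.8, 65.2 and 41.5 TPM in clone 22 (1.10, adjusted p = 0.00516 against clone 15 and 0.00752 against clone 22). Cdc6 was at 16.8, 14.8 and 14.4 TPM in clone 42, against 10.0, 6.51 and 10.3 TPM in clone 15 and 8.98, 7.44 and 5.50 TPM in clone 22 (0.86, adjusted p = 0.0397 against clone 15 and 0.0107 against clone 22). Prim1 was at 33.9, 36.4 and 39.2 TPM in clone 42, against 20.6, 17.6 and 24.9 TPM in clone 15 and 27.0, 22.3 and 16.7 TPM in clone 22 (0.75, adjusted p = 0.0153 against clone 15 and 0.0249 against clone 22). None of the 3 overlapped with wild type. Rfc2 was the fourth, with a log2 change of 0.52 (adjusted p = 0.018 against clone 15 and 0.0411 against clone 22), and median-of-ratios scaling (0.45) and quantile normalization (0.48) were among the settings that ended the call. Of the 22 alternatives tried for each gene, the clone 42 call held in 22 for Uhrf1, 17 for Prim1, 10 for Cdc6 and 7 for Rfc2. Uhrf1 was called in both knockout clones, in opposite directions, but its call in clone 17 held in 9 of 22, with adjusted p-values up to 0.146; the other clone 17 calls held in 12 for Slbp, 11 for Tyms and 8 for Ndc80.

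Rrm2 and Ccne2 were high in clone 42 but passed against 1 wild-type clone only. Rrm2 was at 185, 176 and 169 TPM in clone 42, against 109.8, 53.4 and 106 TPM in clone 15 and 130.3, 95.2 and 68.7 TPM in clone 22 (0.96, adjusted p = 0.0326 against clone 15 and 0.0662 against clone 22). Ccne2 was at 20.4, 22.4 and 20.3 TPM in clone 42, against 14.8, 7.90 and 13.7 TPM in clone 15 and 13.2, 10.6 and 5.75 TPM in clone 22 (0.94, adjusted p = 0.101 against clone 15 and 0.0312 against clone 22). Neither gene overlapped with wild type.

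Ccne1 was at 7.59, 8.40 and 9.29 TPM in clone 42, inside the wild-type range (0.067). Pcna was at 322, 310.2 and 309.7 TPM in clone 42 (0.28, adjusted p = 0.118 against clone 15 and 0.32 against clone 22) and Mcm2 was at 94.2, 93.8 and 85.3 TPM (0.42, adjusted p = 0.529 against clone 15 and 0.0933 against clone 22). Their wild-type libraries reached 311 TPM for Pcna and 86.4 TPM for Mcm2, so the highest wild-type library overlapped clone 42 in both. E2f1 was the 1 S phase gene with a negative log2 change (-0.10), which was not called and was positive, at 0.14, with centring per chromosome.

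Among G2/M genes, 2 of 26 rose in clone 42 and none fell, where 3.25% of tested genes rose and 2.92% fell. The median log2 change was 0.41, against 0.080 over all genes tested. Aurkb, the kinase of the chromosomal passenger complex, was at 62.4, 57.3 and 62.3 TPM in clone 42, against 34.5, 25.3 and 30.8 TPM in clone 15 and 43.9, 28.6 and 27.9 TPM in clone 22 (0.93, adjusted p = 0.0033 against clone 15 and 0.00889 against clone 22). Cdk1 was at 282, 301 and 267 TPM in clone 42, against 171, 132 and 194 TPM in clone 15 and 218, 193 and 157 TPM in clone 22 (0.69, adjusted p = 0.00638 against clone 15 and 0.0324 against clone 22). Every clone 42 library was above every wild-type library for both genes. That held for 9 of the 27 G2/M genes, against 13.4% of tested genes. The call held in 21 of 22 alternatives for Aurkb and in 13 for Cdk1.

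Birc5 (survivin, of the same complex as Aurkb), Cdc20, Cenpa and Cdca8 (borealin) passed against clone 15 alone, with adjusted p-values of 0.00874, 0.00511, 0.0033 and 0.0302. Ccnb1 was at 169.5, 166 and 160.0 TPM in clone 42, inside the wild-type range of 86.2 to 179 TPM (0.40). Mki67 was at 48.9, 37.8 and 25.9 TPM in clone 42, where the wild-type libraries ran from 7.80 to 36.8 TPM (0.81), and the groups overlapped. Neither passed.

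The clone 42 counts also moved with single libraries. Without library 3 of clone 22, 10 S phase genes and 3 G2/M genes were called, all 4 and 2 named genes among them, where 7.61% of all genes were then called higher. Without library 1 of clone 22 there were 6 S phase genes. Without library 2 of clone 15 or any 1 library of clone 42 there was 1, and without library 2 of clone 22 or any 1 library of clone 17 there were 2. The G2/M count was 3 without library 1 or 2 of clone 15, and 1 without library 1 or 2 of clone 17, library 2 of clone 22 or any 1 library of clone 42. For these other fits the share of all genes is not given here.

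**Figure D5:**
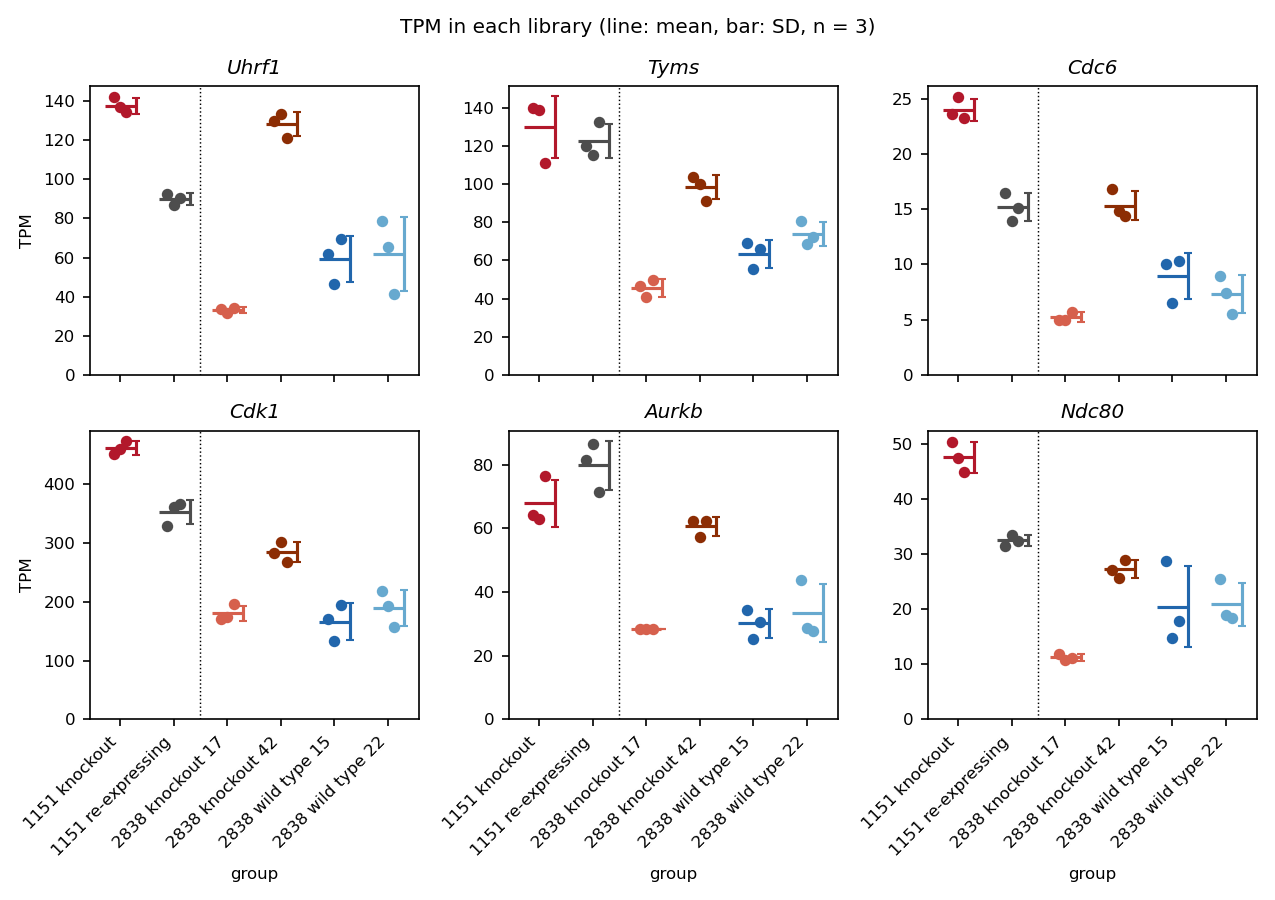
TPM of Uhrf1, Tyms, Cdc6, Cdk1, Aurkb and Ndc80 in each library (points) with group mean and SD (n = 3), by group on the x axis. Uhrf1 runs from 31.5 to 34.3 TPM in clone 17 and from 121 to 133 TPM in clone 42, on either side of the wild-type libraries.

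The 2 knockout clones were also compared with each other, in the fit of all 12 libraries of the line, so the error of the difference rests in part on the wild-type libraries. Clone 42 was higher than clone 17 for 18 of the 23 S phase genes and for 7 of the 26 G2/M genes tested, and lower for none, where 8.23% of tested genes were higher and 8.99% lower. The median log2 difference, clone 42 minus clone 17, was 0.91 over S phase genes and 0.53 over G2/M genes, against -0.013 over all genes. For 22 S phase genes and 20 G2/M genes every clone 42 library lay above every clone 17 library, as 27.8% of tested genes did; Ube2c was the 1 gene that lay below, as 30.7% did.

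Uhrf1 differed the most, by 1.92 ± 0.21 SE (adjusted p = 0.000137). Next were Cdc6 (1.39 ± 0.21), Ccne2 (1.39 ± 0.28) and Rrm2 (1.35 ± 0.28). Cdc6 was at 16.8, 14.8 and 14.4 TPM in clone 42, against 4.98, 4.91 and 5.72 TPM in clone 17. All genes of deoxynucleotide supply (3 of 3) and of the fork polymerase, clamp and nuclease (4 of 4) were higher in clone 42, as were 6 of 9 for the helicase and 3 of 4 for chromatin copying. The S phase genes that did not pass were Mcm3 (0.71), Gins2 (0.48), Cdc45 (0.51), Hells (1.10) and E2f1 (0.12).

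Among G2/M genes the called ones were Ndc80 (1.20 ± 0.22), Birc5 (1.13 ± 0.21), Aurkb (1.07 ± 0.17), Top2a (0.99 ± 0.26), Cdk1 (0.65 ± 0.15), Cenpa (0.63 ± 0.12) and Cdc20 (0.44 ± 0.13). Genes of spindle assembly (Kif11, Hmmr, Nusap1 and Tpx2) and of cytokinesis (Kif23, Anln and Ect2) held none. Mki67 differed by 1.19 ± 0.45 and did not pass (adjusted p = 0.0999); without library 3 of clone 22 it did (adjusted p = 0.00433). Without that library the counts were 21 S phase and 16 G2/M genes, with all 25 genes called before still among them, beside 20.1% of all genes higher.

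The wild-type clones did not differ in any of the 49 genes in limma, where 0.577% of tested genes were higher in clone 22 than in clone 15 and 1.34% lower. At an unadjusted p under 0.05 there were 0 S phase genes and 4 G2/M genes, all higher in clone 22, where 5.67% of all genes were higher and 9.33% lower, and 1 gene was called without library 3 of clone 22. The median log2 difference, clone 22 minus clone 15, was 0.052 over S phase genes and 0.16 over G2/M genes, against -0.16 over all genes. That last value moved with the scaling, to -0.0096 under median-of-ratios scaling and -0.0032 under quantile normalization.

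With the clone as the unit, 2 knockout clones against 2 wild-type clones, limma called none of the 49 genes, where 0.0254% of tested genes were called higher and 0.0509% lower. The lowest adjusted p of a member was 0.972, none reached an unadjusted p under 0.05 (662 of all genes did), and standard errors were 0.20 to 0.49. Uhrf1 had a mean log2 difference of 0.14 ± 0.49 and Cdk1 of 0.36 ± 0.25.

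The effect in line 1151 minus that in line 2838 was tested on the 6 group means. Limma called none of the 50 genes, where 0.658% of genes were called higher and 0.441% lower. The lowest adjusted p was 0.367, none reached an unadjusted p under 0.05 (1738 of all genes did), and standard errors ran from 0.20 to 1.2, so the interval of each difference was wide. The values were 0.83 ± 0.50 for Mcm2, -0.91 ± 0.37 for Ccnb2 and 0.47 ± 1.20 for Uhrf1.

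Other genes of the pathway were taken from 5 further lists, 156 genes in all, with the chromosome shifts above left in their 1151 changes. Their counts are read against the same shares of all tested genes: 34.0% higher and 27.0% lower in line 1151, 2.08% and 1.86% in clone 17, 3.25% and 2.92% in clone 42, and 8.23% and 8.99% for clone 42 against clone 17. Of 43 other DNA replication genes, 18 rose and 7 fell in 1151 knockout cells. Those with the largest rises were Timeless (1.02), which holds the fork together, Pole (1.01), the leading-strand polymerase, and Clspn (0.76), a checkpoint mediator, and those with the largest falls were Rpa3 (-0.76), Tk1 (-0.53) and Usp1 (-0.44). In clone 17, 3 of the 43 fell beyond both wild-type clones and none rose: Chaf1a (-0.90), Rfc3 (-0.70) and Tipin (-0.55). In clone 42, 4 rose and none fell, and the largest rises were those of Chaf1a (1.01) and Cdc7 (0.98), the kinase that fires origins. Chaf1a, the large subunit of the chaperone that Chaf1b belongs to, was thus called in opposite directions, at 8.67, 8.39 and 9.26 TPM in clone 17 and 35.1, 39.6 and 32.9 TPM in clone 42, against 14.8, 15.8 and 20.2 TPM in clone 15 and 21.3, 23.9 and 10.6 TPM in clone 22. Between the clones, 19 of the 43 were higher in clone 42 and 1, Orc4, an origin recognition subunit, was lower.

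Of 58 other mitosis genes, 21 rose and 5 fell in 1151 knockout cells, a share of rises near the 34.0% of all genes. Ckap5 (1.03), a microtubule polymerase, Ncapd2 (0.88), a condensin subunit, and Gtse1 (0.82) rose the most, and Cdkn3 (-0.82), a phosphatase of CDKs, fell the most. Clone 17 held no call among the 58; 47 of them had a negative log2 change, with a median of -0.21. In clone 42, 5 rose and 1 fell: Ccnf (1.10), cyclin F, Kifc1 (0.96) and Pbk (0.96) rose the most, and Pttg1 (-0.62), securin, fell. Between the clones, 21 were higher in clone 42 and none lower, with a median of 0.63.

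Of 29 G1 cyclins, CDKs, pocket proteins and E2F or DREAM regulators tested, 11 rose and 6 fell in 1151 knockout cells, where 34.0% of all genes rose and 27.0% fell, so neither share stood far from that of all genes. Myc, a growth regulator, was at 141, 148 and 117 TPM in knockout libraries, against 52.8, 50.0 and 55.5 TPM in re-expressing libraries (1.34 ± 0.10 SE, adjusted p = 3.71e-05), and Cdk4 (1.01) and the repressor E2f7 (1.00) also rose. Lin37 (-0.68), of the DREAM complex, and the pocket protein Rbl2 (-0.61) fell. These values were not centred per chromosome. None of the 29 was called beyond both wild-type clones in clone 17 or clone 42; between the clones 4 were higher in clone 42, among them Wee1 (0.99), which restrains Cdk1, and 1, E2f4, was lower (-0.49).

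Of 6 CDK inhibitors tested, 2 fell and 1 rose in 1151 knockout cells, too few to set against the 27.0% and 34.0% of all genes. Cdkn1a (p21) was at 6.69, 9.69 and 9.97 TPM in knockout libraries, against 14.5, 11.5 and 15.1 TPM in re-expressing libraries (-0.60, adjusted p = 0.0176), Cdkn2d fell by 0.95 and Cdkn2b rose by 0.56. In clone 17 none was called, and in clone 42 Cdkn2c (p18) rose (0.60). Between the clones, Cdkn2c (0.73) and Cdkn2d (0.51) were higher in clone 42 and Cdkn2b (-0.63) lower.

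Of 18 genes of replication stress and homologous recombination, 6 rose, a share like the 34.0% of all genes, and 2 fell in 1151 knockout cells, with the nuclease Exo1 (0.67) and Fancd2 (0.66) at the top and Chek2 (-0.45) and Fanca (-0.26) lower. In clone 17 Brca2 was the 1 called gene (-1.12). All 18 had a positive log2 difference, clone 42 minus clone 17, with a median of 0.83, and 6 of them were called higher in clone 42. None of the 5 lists held a call between the wild-type clones, with the clone as the unit, or in the difference between lines. In the last 2 comparisons these lists were tested with the same wide errors as the 50 genes. The wild-type clones were compared in the fit of 12 libraries, with the same standard errors as clone 42 against clone 17.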

How the data were processed

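PolyA RNA of 18 libraries in 6 groups of 3 was sequenced by Novogene as 150-base pairs at about 20 M read pairs per library, per the labels; the depth of each library is not given in the sources used here, so no counting interval was made. The authors deposited TPM values of 35642 gene symbols in 1 table. The submitters' processing notes name Salmon and the build mm10, without versions. A TPM value is divided by transcript length and scaled to a fixed total per library, so a change in a few abundant genes moves all others. Columns were matched to libraries by the library name in the labels; no 2 of the 153 library pairs held identical values.

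From these TPM values, log2(TPM + 1) was computed and tested in R 4.3.3 by limma 3.58.1. The variance prior followed a trend with level, and p-values were adjusted by Benjamini-Hochberg over all genes at 1 TPM or more in at least 3 libraries of the fit (11630 genes in line 1151, 11795 in line 2838, 12458 on the 6 group means). Fold changes are on this log2 scale, which understates changes of low genes. Line 1151 was fitted on its 6 libraries and line 2838 on its 12, with 4 clone means; the clone means and the difference between lines were fitted on group means. The procedure was tested on simulated data.

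The 50 genes, the 12 gene lists and the tests were chosen with earlier results of these data known. Every one of the 50 may be named. Values of each library are given, in each of S phase and G2/M, for at most 4 called genes with the largest changes in each direction in line 1151, for at most 3 in each direction in clones 17 and 42, for Pcna, Mcm2, Ccne1, E2f1, Mki67, Cdk1 and Ccnb1 whatever they did, and, outside that rule, for a few others (Rrm2, Ccne2 and Bub1 in line 2838 or over all libraries, and Myc, Cdkn1a and Chaf1a), chosen after their values were seen. Other lists name at most 3 genes in each direction of a comparison; a few items are not reported here. Alternatives were a pseudocount of 0.1, centring per chromosome (GENCODE M21 positions), quantile normalization or median-of-ratios scaling, a filter at a mean of 5 TPM or none at all, no trend, the spread of group means, a replicate block, and leaving out each library or clone. Motif letters were counted, and figures drawn, in Python 3.11.15 with matplotlib 3.10.9.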

Additional observations from a re-analysis of the deposited data

Results flagged for a closer look

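The 25 genes called between the knockout clones stand out because clones of the same label differed, by a test of the difference itself (limma, adjusted over all genes). The test compares clones and does not measure an effect of the label. Among all tested genes, 8.23% were called higher in clone 42 and 8.99% lower. In each of the 25, all 3 clone 42 libraries lay above all 3 clone 17 libraries, as in 27.8% of tested genes. The 25 were picked by a test on the same libraries, so this separation largely follows from the choice and is no added support. The log2 differences below are clone 42 minus clone 17.

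For the helicase and its loading, the differences were 1.39 for Cdc6, 1.05 for Mcm6, 1.04 for Mcm4, 0.927 for Mcm7, 0.836 for Mcm5 and 0.662 for Mcm2. Those of Mcm2 and Mcm4 were close to the threshold, at adjusted p-values of 0.0466 and 0.0329.

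For deoxynucleotide supply they were 1.35 for Rrm2, 1.10 for Tyms and 1.06 for Rrm1, and for the fork polymerase, clamp and nuclease 0.914 for Prim1, 0.804 for Fen1, 0.799 for Rfc2 and 0.738 for Pcna. For chromatin copying they were 1.92 for Uhrf1, 1.06 for Slbp and 0.776 for Chaf1b. Among cyclins, Ccne2 differed by 1.39 (adjusted p = 0.00646) and Ccne1 by 0.705 (adjusted p = 0.0360). The S phase gene at the highest certainty was Uhrf1 (adjusted p = 0.000137), followed by Tyms (0.000185) and Slbp (0.000374).

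Among G2/M genes they were 1.20 for Ndc80, 1.13 for Birc5, 1.07 for Aurkb, 0.988 for Top2a, 0.650 for Cdk1, 0.633 for Cenpa and 0.440 for Cdc20. Aurkb had the lowest adjusted p (0.00179) and Cdc20 the highest (0.0369). The edit and any other difference between the clones cannot be told apart in this design.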

How the results depend on the processing

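Counts of called genes below that moved are set beside their reported values; the causes were not tested. With the spread of group means, 0 S phase and 0 G2/M genes were called in line 1151, against 15 and 13. Leaving out 1 library gave 14 to 15 and 11 to 19 there. In clone 17 the G2/M count of 1 was 0 with no filter, a mean of at least 5 TPM, quantile normalization or centring per chromosome, and 0 to 1 without 1 library. Its S phase count of 3 was 6 under quantile normalization, 5 without clone 15, 15 without clone 22 and 0 to 12 without 1 library. In clone 42 the S phase count of 4 was 8 without clone 15, 18 without clone 22 and 1 to 10 without 1 library; the G2/M count of 2 was 1 under median-of-ratios scaling, 0 with centring per chromosome, 15 without clone 22 and 1 to 3 without 1 library. A count without a wild-type clone asks for 1 comparison in place of 2. Clone means without clone 17 leave 1 knockout clone, so no count is given for them. Clone 22 against clone 15 gave 0 to 1, and clone 42 against clone 17 gave 18 to 37, without 1 library. The share of all genes called moved too. Without library 3 of clone 22 it went from 1.86% to 8.91% lower in clone 17. For clone 42 against clone 17 it then went from 8.23% to 20.1% higher. For every other alternative setting the share is not given, so these counts are not read as results about these genes.

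Deviations of same-numbered libraries correlated at -0.146 to -0.0287 in line 1151 (0 of 3 pairs over 0.1) and -0.153 to 0.196 in line 2838 (4 of 18). Different-numbered libraries gave -0.128 to 0.188 in line 1151 (3 of 6) and -0.195 to 0.147 in line 2838 (4 of 36). Deviations from a group mean are bound to each other, so these values cannot exclude that replicate numbers pair libraries. With a replicate block the S phase count in clone 42 was 2; it was 14 S phase and 13 G2/M genes in line 1151, 2 and 1 in clone 17, 2 G2/M genes in clone 42, 24 between the knockout clones and 0 between the wild-type clones.

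Of 1531 single-gene values, 1300 kept their direction and side of the threshold, 189 lost and 21 gained a call, and 21 reversed, all but Prim1 among uncalled values. E2f1 in line 1151 was -0.0704 (median-of-ratios), -0.0626 (quantile), -0.0700 (centring) and -0.0696 to 0.0881 (without 1 library). Cdk1 in clone 17 was -0.0534, -0.0323 and -0.150 under the same 3 settings, -0.0600 without clone 15 and -0.0383 to 0.0990 without 1 library. Ccne1 in clone 42 was -0.00464, -0.0221 and -0.0366, and -0.0346 to 0.132 without 1 library. Prim1 in line 1151 was -0.0274 and Ccnb1 in clone 17 was -0.00019 with centring; E2f1 in clone 42 was 0.137 with centring and 0.0154 without clone 15.

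The unknown depth, 3 libraries a group and 1 clone a group limit these comparisons. Median-of-ratios scaling and quantile normalization moved the median of all genes by over 0.1 for clone 22 against clone 15 alone. Centring per chromosome moved it by over 0.1 in more comparisons. It went from 0.0885 to -0.0286 for clone 17, from 0.0796 to -0.0302 for clone 42 and from 0.0746 to -0.0297 for clone means. For clone 22 against clone 15 it went from -0.157 to 0.0324.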

Other observations

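Wild-type libraries of 1 clone spread widely in these genes. Hells was at 69.6, 52.1 and 12.2 TPM in the 3 libraries of clone 22, and Ect2 at 136, 109.6 and 29.1 TPM. Mcm3 ran the other way in the same libraries, at 89.0, 91.4 and 149 TPM, so the library that was lowest for Hells and Ect2 was highest for Mcm3. In clone 15, library 2 was the lowest of the 3 for Rrm2 (109.8, 53.4 and 106 TPM), Top2a (165, 83.5 and 119 TPM) and Birc5 (102, 52.2 and 75.9 TPM). Mki67 was at 48.9, 37.8 and 25.9 TPM in the 3 libraries of clone 42, a wider spread than that of Uhrf1 (130.1, 133 and 121 TPM) in the same libraries.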
